A study of Mus musculus with 24 samples.

Results

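Genes of the mouse major histocompatibility complex (MHC, called H2 in the mouse) and of antigen presentation were followed across 8 states of the splenic B cell. The set took every symbol that starts with H2- together with Cd74, Ciita, Ctss, Ifi30, B2m, Tap1, Tap2, Tapbp and Nlrc5, and kept those above -5 log2 in at least 3 of 24 libraries. Of 53 candidates among the 23420 genes in the files, 40 met that rule, and the other 13, among them H2-Q6, H2-Q7, H2-Q8, H2-Q9 and H2-T9, did not. The rule uses the level and not a comparison of groups, but a gene read in few groups, such as H2-M5, could meet it through those groups alone.

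All cells were splenic B cells of BALB/c mice. Each of the 8 groups had 3 libraries. They were naive cells, cells activated in vitro for 4 h, for 12 h or for 24 h, cells activated in vivo, and cells of the germinal center (GC) at an early, a peak and a late stage. Cells were purified with beads, stained with antibodies and sorted, and messenger RNA was sequenced. The labels name no stimulus, immunogen, genotype, day, age, animal or culture, so a p-value here measures only the spread between these libraries. The log2 values are those deposited, and resemble CPM, that is, counts scaled to the library total. A gene was called changed at an adjusted p under 0.05 from limma, fitted on all 11885 genes with a log2 value of at least 0 in at least 3 libraries. Differences are given in log2 with their standard error (SE).

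MHC class I molecules are made by nearly all cells and show peptides from inside the cell to CD8 T cells. Each is a heavy chain (H2-K1 or H2-D1 here) paired with beta-2-microglobulin (B2m), loaded in the endoplasmic reticulum with peptides that the immunoproteasome cuts and that Tap1 and Tap2 pump in. MHC class II molecules are pairs of an alpha and a beta chain, made by B cells, dendritic cells and macrophages. The invariant chain Cd74 takes them to the endosome, cathepsin S (Ctss) trims it, H2-DM exchanges the last fragment for an antigen peptide, and H2-O inhibits H2-DM. Germinal center B cells use class II to present captured antigen to T follicular helper cells. The transactivators Nlrc5 and Ciita, which bind no DNA themselves, act through shared promoter boxes on class I and class II genes respectively.

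Of the 40 genes, 24 belong to the class I side, 14 to the class II side, and 2 only lie in the region: H2-Ke2 is a prefoldin subunit and H2-Ke6 a hydroxysteroid dehydrogenase. The test filter kept 35 of the 40, which were 19 on the class I side, all 14 on the class II side and these last 2. BALB/c mice carry the d haplotype of this polymorphic region, whereas the mm10 reference comes from C57BL/6J mice of the b haplotype, so reads may have been lost or assigned to a similar gene. Of all windows of 75 bases in the annotated exons, the share also found in another gene was 0% for H2-Aa, H2-Ab1, H2-Eb1, B2m, Cd74, Ciita and Nlrc5. It was 3.1% for H2-K1 and 5.4% for H2-D1, 15.8% for H2-DMb1 and 16.1% for H2-DMb2 (each mostly with the other), and 21.2% for H2-Q5. Among the other tested class Ib genes it ran from 0% for H2-M3 and H2-T3 to 16% for H2-T10. Values of the H2-Q genes, H2-T10 and the 2 H2-DM beta genes are therefore uncertain. These windows come from the b haplotype, so a share of 0% does not show that reads of the d haplotype were counted in full. The levels of H2-K1, H2-D1 and the class II chains, and their order within a group, are uncertain for that reason too.

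The promoters of 5 members are shown first, because the boxes that Ciita and Nlrc5 work through lie there. Whether these boxes have a part in the differences below was not tested. They are the 250 bases before the RefSeq transcription start (build GRCm38.p6, C57BL/6J), 5′ to 3′ on the strand of the gene, and capitals mark 4 motifs searched on both strands: ATTGG (the core of the Y box), CTAGCAAC (a core of the X box), GGGATTCCC (a core of the kappa B site) and TTTCACTTC (part of the interferon response element). These letters were chosen after the promoters had been seen. H2-Aa lies at chr17:34287824-34288073 on the minus strand, and H2-Eb1 at chr17:34305617-34305866, H2-Ob at chr17:34238655-34238904, H2-D1 at chr17:35262844-35263093 and B2m at chr2:122147437-122147686 on the plus strand.
H2-Aa: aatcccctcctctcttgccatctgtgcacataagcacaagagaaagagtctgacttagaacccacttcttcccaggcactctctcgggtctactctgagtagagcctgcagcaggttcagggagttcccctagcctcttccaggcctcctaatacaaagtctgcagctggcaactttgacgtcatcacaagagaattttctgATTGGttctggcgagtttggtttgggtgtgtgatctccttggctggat
H2-Eb1: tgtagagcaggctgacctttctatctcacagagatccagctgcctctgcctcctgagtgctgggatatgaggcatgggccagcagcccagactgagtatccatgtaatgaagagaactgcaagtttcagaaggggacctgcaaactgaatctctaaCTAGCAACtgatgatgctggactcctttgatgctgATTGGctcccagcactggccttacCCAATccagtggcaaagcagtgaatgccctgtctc
H2-Ob: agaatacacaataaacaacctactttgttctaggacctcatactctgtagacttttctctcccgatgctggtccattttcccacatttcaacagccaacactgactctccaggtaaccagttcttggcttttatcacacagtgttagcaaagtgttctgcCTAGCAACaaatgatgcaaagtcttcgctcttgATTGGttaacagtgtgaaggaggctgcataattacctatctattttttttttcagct
H2-D1: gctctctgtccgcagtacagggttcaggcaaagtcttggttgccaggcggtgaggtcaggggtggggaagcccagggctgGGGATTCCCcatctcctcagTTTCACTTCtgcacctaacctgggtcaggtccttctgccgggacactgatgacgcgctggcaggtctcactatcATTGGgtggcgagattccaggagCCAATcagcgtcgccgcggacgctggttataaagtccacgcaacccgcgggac
B2m: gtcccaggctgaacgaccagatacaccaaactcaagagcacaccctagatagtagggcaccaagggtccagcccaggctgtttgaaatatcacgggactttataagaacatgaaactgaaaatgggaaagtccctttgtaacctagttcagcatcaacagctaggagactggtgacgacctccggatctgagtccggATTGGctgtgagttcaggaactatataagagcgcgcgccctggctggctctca

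In H2-Eb1 the X box core stood 94 to 87 bases before the start and Y box cores 59 to 55 and, on the other strand, 35 to 31 bases before it. In H2-Ob, the beta chain of H2-O, the same pair stood at 90 to 83 and 57 to 53 bases. The H2-Aa promoter held the Y box core at 48 to 44 bases. B2m held a Y box core at 53 to 49 bases and no exact match to the other motifs. H2-D1 held Y box cores at 76 to 72 and, on the other strand, at 53 to 49 bases, with the kappa B letters at 170 to 162 and the interferon element at 150 to 142 bases. RefSeq gave a promoter for 26 of the 40 members, 15 on the class I side and 10 on the class II side, and motifs were counted in windows reaching 50 bases past the start. The X box letters were in 3 of the 10 class II promoters (H2-Eb1, H2-Eb2 and H2-Ob), in 0 of the 15 class I promoters and in 1.32% of all 32851 promoters. The kappa B letters were in 2 of 15 (H2-D1 and H2-K1) and 0.353% of all promoters. The interferon letters were in 5 of 15 (H2-D1, H2-K1, H2-M3, H2-Q4 and H2-Q10) and 0.505%, and neither motif was in a class II promoter. ATTGG was in 12 of 15 and 8 of 10, against 37.4% of all promoters. A match describes the letters and is no measured binding site. Only exact letters were searched, so a motif not found does not show that the promoter lacks that box or element in other letters.

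Naive B cells carried the highest level of most members. On the class I side, 14 of 19 tested members had their highest group mean in naive cells, 4 in in vivo activated cells (H2-Q4, H2-T10, Tap1 and Nlrc5) and 1 in peak GC cells (Tap2). On the class II side it was 10 of 14 in naive cells, with H2-Ab1 and H2-Eb1 highest at 4 h and H2-Ob and H2-Eb2 in peak GC cells. H2-Aa, counted for naive cells, had the same mean of 12.79 at 4 h. The 4 h libraries of H2-Ab1 and H2-Eb1 and the peak GC libraries of H2-Ob overlapped the naive ones. In naive libraries Cd74 was the most abundant of all 23420 genes in each of the 3 libraries and H2-Aa ranked 3 or 4. The 5 class II chain genes and Cd74 together held between 3.67% and 3.95% of the summed library level, and H2-K1, H2-D1 and B2m between 0.393% and 0.406%. Per kilobase of annotated exon, the naive log2 level was 13.35 for Cd74, 12.22 for H2-Ea-ps, 11.12 for H2-Eb1, 10.87 for H2-Aa, 10.58 for H2-Ab1, 10.91 for B2m, 8.95 for H2-K1 and 8.42 for H2-D1. The length merged the exons of all annotated transcripts of a gene, so the order on this scale depends on the annotation. It was 0.86 kb for B2m, 1.036 kb for H2-Ea-ps, 2.938 kb for H2-K1 and 3.798 kb for H2-Aa. H2-Eb2, whose product resembles the I-E beta chain, was at 3.75 on that scale. H2-Ea-ps, the alpha chain of I-E, is annotated as a polymorphic pseudogene because C57BL/6 mice do not express it, and it was among the most abundant class II transcripts here.

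All 6 B-cell markers were read in every group, with a summed CPM-like level between 6000 and 6360 in naive, 2580 and 2960 in in vitro, 4320 and 4610 in in vivo activated and 4840 and 5810 in GC libraries. The 6 GC markers summed to between 1310 and 1740 in the 9 GC libraries and to at most 137 in the others. Macrophage markers (11 of the 12 listed symbols were in the files, and none was at the floor of the scale in all libraries of a group) summed to between 53.4 and 57.5 in naive, 7.52 and 14.3 in in vitro, 32.9 and 39.6 in in vivo activated, 119 and 308 in early and peak GC, and 484 and 2080 in late GC libraries. Dendritic cell markers (8 of 8 in the files) summed to between 38.3 and 40.3 in naive, 13.4 and 59.3 in in vitro, 28.9 and 29.8 in in vivo activated and 60.5 and 75.1 in GC libraries. Flt3 led that sum in GC libraries (5.63 to 6.06 log2) and Zbtb46 at 4 h (5.12 to 5.23). In early GC against naive cells, 2 of the 5 tested dendritic cell markers were higher (39.5% of all tested genes) and 3 lower (40.2%). The 7 T cell markers summed to between 46.9 and 55.5 in naive and between 129 and 240 in all other libraries, a sum that followed Lck (5.32 to 5.44 log2 in naive and 6.88 to 7.73 in other libraries). Of the 5 tested T cell markers, 1 was higher (38.9% of all tested genes) and 4 were lower (39.1%) at 4 h than in naive cells. In late GC cells 4 were higher and 0 lower than in naive cells (median 1.21, with 38.5% of all tested genes called higher). Against early GC cells, 4 were higher and 0 lower in late GC cells (median 1.4, with 13% of all genes called higher). The part of T cell transcripts in the class I differences was not tested. The 5 plasma cell markers summed to between 369 and 410 in naive, 101 and 166 in in vitro, 351 and 403 in in vivo activated and 971 and 1580 in GC libraries, a sum that followed Igj (7.90 to 8.07 log2 in naive and 9.73 to 10.46 in GC libraries). Prdm1 and Sdc1 of the same list were lower in peak GC than in naive cells, by 2.37 and 3.47. Macrophages and dendritic cells also make class II, so these sums stand beside every class II difference below, and their part in the results was not tested. Ddx3y, a gene of the Y chromosome, had log2 values from 4.50 to 5.77 in naive and in vitro libraries and lay below -6 in all 12 in vivo activated and GC libraries. Xist, read in female cells, lay between 6.28 and 7.49 in the former and between 7.91 and 8.54 in the latter, so it was read in all libraries. The sex of the animals and the cell state cannot be told apart in comparisons between the former and the latter.

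**Figure D1:**
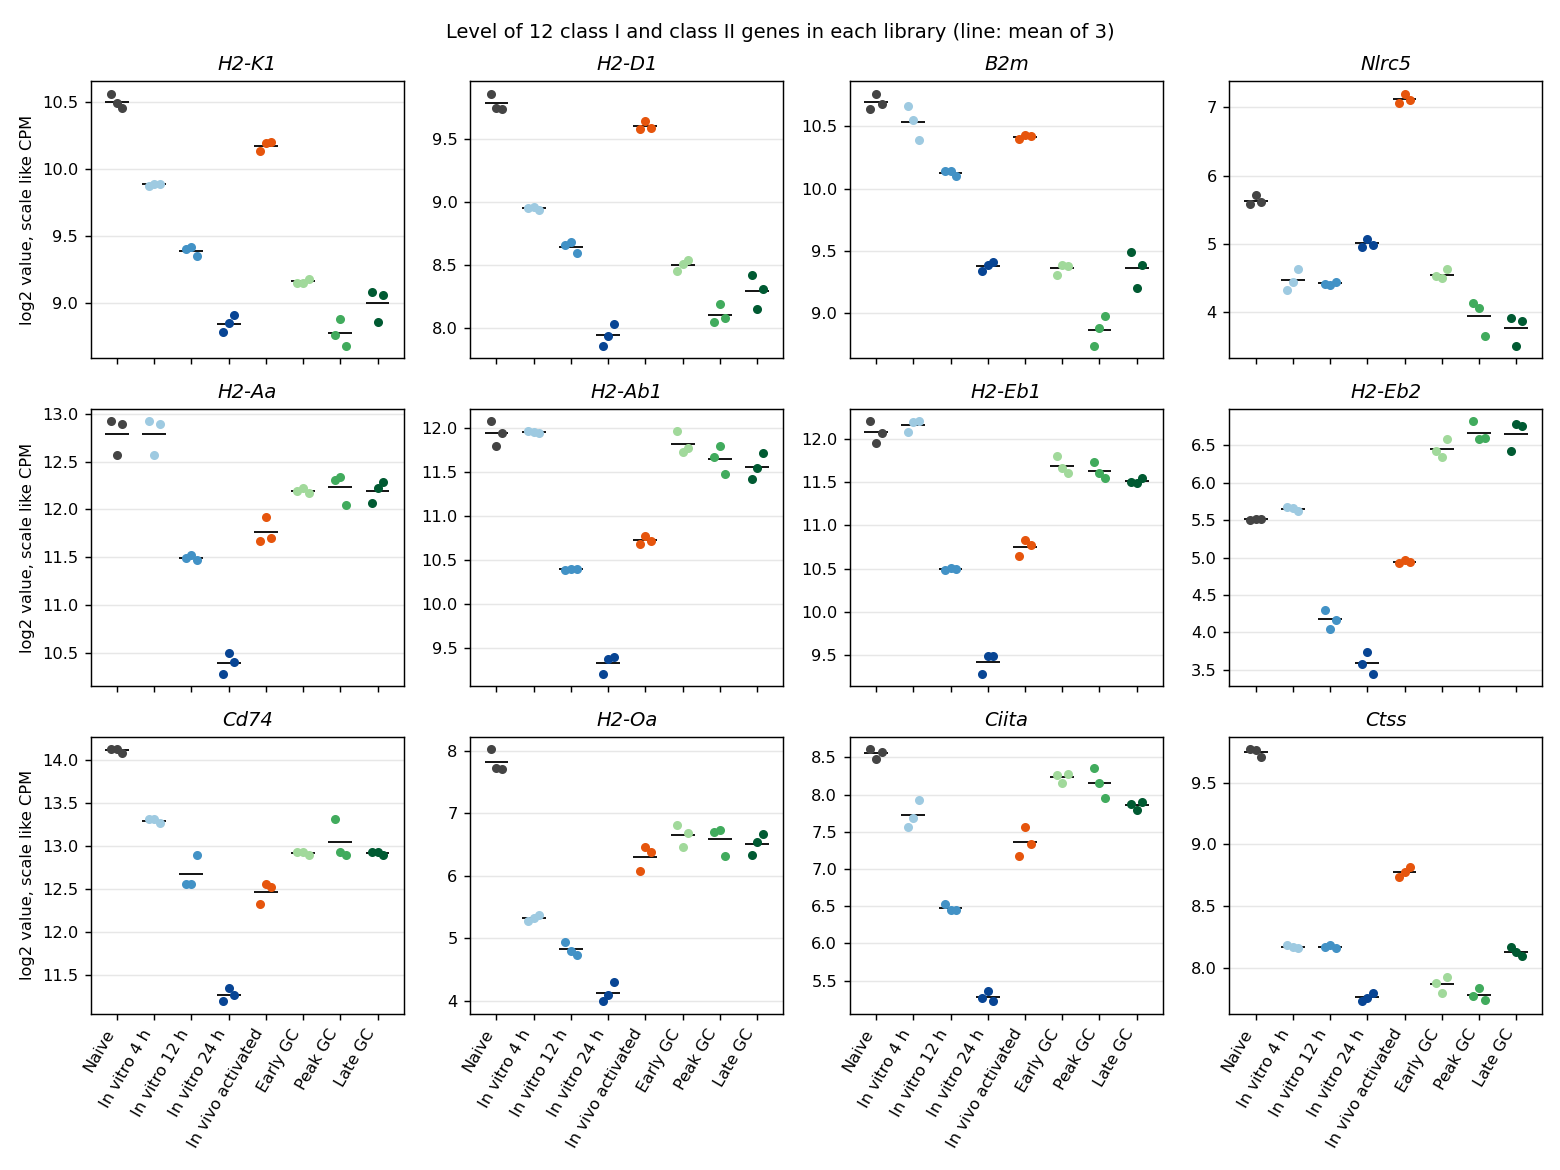
Deposited log2 values of 12 members in every library (points) with the mean of each group of 3 (line), on a vertical axis that differs between panels. H2-K1, H2-D1 and B2m were low in the 9 GC libraries and at 24 h in vitro, whereas H2-Aa, H2-Ab1, H2-Eb1 and Ciita were low at 24 h in vitro and higher in the GC libraries than in the in vivo activated ones.

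The classical class I chains were lower at each later time in culture and were low in GC cells, and in vivo activated cells lay nearest to naive ones. H2-K1 (chr17:33996017-34000347) read 10.56, 10.49 and 10.45 log2 in naive libraries, 9.87, 9.89 and 9.89 at 4 h, 9.40, 9.42 and 9.35 at 12 h and 8.78, 8.85 and 8.91 at 24 h in vitro. It read 10.13, 10.19 and 10.20 in in vivo activated, 9.15, 9.15 and 9.18 in early GC, 8.76, 8.88 and 8.68 in peak GC and 9.08, 8.86 and 9.06 in late GC libraries. Its 3 peak GC libraries lay below all in vivo activated, naive and early GC ones, by 1.40 ± 0.05 (SE), 1.72 ± 0.05 and 0.39 ± 0.05. H2-D1 (chr17:35262730-35267499) read 9.86, 9.75 and 9.74 in naive libraries, 8.95, 8.96 and 8.94 at 4 h, 8.66, 8.68 and 8.60 at 12 h and 7.86, 7.94 and 8.03 at 24 h. The same gene read 9.58, 9.64 and 9.59 in in vivo activated, 8.45, 8.51 and 8.54 in early, 8.05, 8.19 and 8.08 in peak and 8.42, 8.15 and 8.31 in late GC libraries. Both genes were highest in naive and next highest in in vivo activated cells, and H2-K1 had its lowest mean in peak GC cells and H2-D1 at 24 h. For both, the late and peak GC libraries overlapped. In a bulk sample, fewer cells of a type and less RNA per cell cannot be told apart.

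B2m, the light chain of every class I molecule (chr2:122147686-122153083), read 10.64, 10.76 and 10.68 in naive libraries, 10.66, 10.55 and 10.39 at 4 h, 10.14, 10.14 and 10.10 at 12 h and 9.34, 9.39 and 9.41 at 24 h. It read 10.40, 10.43 and 10.42 in in vivo activated, 9.31, 9.39 and 9.38 in early GC, 8.74, 8.88 and 8.98 in peak GC and 9.49, 9.20 and 9.39 in late GC libraries. Its lowest values were thus the 3 peak GC ones, below every other library. Peak GC cells were 2.92-fold below in vivo activated cells for B2m (log2 -1.55 ± 0.07, adjusted p = 1.8e-15 from limma), 2.63-fold below for H2-K1 and 2.83-fold below for H2-D1. The small fall of B2m at 4 h (-0.16 ± 0.07, adjusted p = 0.0344 from limma) had overlapping libraries and lost its call in 5 alternative settings, among them without naive replicate 2 or 3 or 4 h replicate 2 or 3.

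Nlrc5, the class I transactivator (chr8:94434356-94527272), had the widest span of group means among the tested class I members, 3.35 log2. It read 5.58, 5.72 and 5.61 in naive libraries, 4.33, 4.45 and 4.63 at 4 h, 4.42, 4.40 and 4.45 at 12 h and 4.96, 5.08 and 4.99 at 24 h, so that 24 h lay above 12 h by 0.59 ± 0.11. It read 7.06, 7.20 and 7.10 in in vivo activated, 4.53, 4.50 and 4.63 in early GC, 4.13, 4.07 and 3.65 in peak GC and 3.92, 3.51 and 3.88 in late GC libraries. All in vivo activated libraries lay above all others, and the peak and late GC libraries overlapped. Nlrc5 rose by 1.48 ± 0.11 from naive to in vivo activated cells and was 8.99-fold lower in peak GC than in in vivo activated cells (log2 -3.17 ± 0.11, adjusted p = 1.95e-17 from limma).

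The loading genes did not all follow the chains. Tap1, a subunit of the peptide transporter (chr17:34187553-34197225), read 7.42, 7.30 and 7.36 in naive, 8.48, 8.52 and 8.59 in in vivo activated and 7.37, 7.40 and 7.11 in peak GC libraries, so it rose by 1.17 ± 0.07 with in vivo activation while its peak GC libraries overlapped the naive ones. Tap2, the other subunit (chr17:34203527-34216321), read 7.16, 6.95 and 7.02 in naive, 7.43, 7.38 and 7.42 in in vivo activated and 7.48, 7.62 and 7.25 in peak GC libraries. Tap2 was 0.41 ± 0.07 higher in peak GC than in naive cells and differed by 0.04 ± 0.07 from in vivo activated cells, which was not called (adjusted p = 0.635 from limma). Tapbp, tapasin, which bridges the transporter and the class I molecule (chr17:33915899-33929292), read 8.86, 8.75 and 8.73 in naive, 8.51, 8.49 and 8.60 in in vivo activated and 7.31, 7.33 and 7.04 in peak GC libraries. It fell with the chains, by 1.55 ± 0.07 in peak GC against naive cells.

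Class Ib genes are less polymorphic relatives of the classical chains, and the group here took every H2- symbol not placed in another class. Among them, H2-K2 is annotated as a transcribed pseudogene and H2-Q5, H2-T10 and H2-Bl as polymorphic pseudogenes. Of 12 tested (H2-K2, H2-Q1, H2-Q2, H2-Q4, H2-Q5, H2-Q10, H2-T3, H2-T10, H2-T23, H2-T24, H2-Bl and H2-M3), 11 were lower at 4 h than in naive cells, and all 12 at 12 h, at 24 h and in peak and late GC cells, against 39.1%, 39.2%, 42.5%, 39.3% and 43.1% of all tested genes. H2-T23, which encodes Qa-1, a ligand of receptors on natural killer cells, read 8.96, 8.80 and 8.76 in naive, 6.14, 6.23 and 6.32 in 24 h, 8.20, 8.41 and 8.49 in in vivo activated and 7.76, 7.79 and 7.55 in peak GC libraries. H2-T24 had the largest span of group means among the class Ib genes tested, 3.12 log2, and read 6.45, 6.22 and 6.42 in naive and 3.05, 3.29 and 3.38 in 24 h libraries. Among them, H2-Q4 and H2-T10 were the 2 that rose from naive to in vivo activated cells, by 0.30 ± 0.07 and 0.26 ± 0.09. The H2-T10 libraries overlapped (5.20 to 5.41 in in vivo activated and 4.89 to 5.24 in naive), and its call was lost without in vivo activated replicate 3 or naive replicate 3. H2-M3, which presents formylated peptides, had the smallest class Ib difference between in vivo activated and peak GC cells (-0.19 ± 0.07), with libraries that met at 5.83. Its call was lost without peak GC replicate 3 and without in vivo activated replicate 2 or 3, and the call for early GC (-0.19 ± 0.07) without early GC replicate 2 or the same in vivo activated libraries. H2-Bl read 0.90, 0.93 and 1.41 in early and -0.86, 0.16 and 0.11 in late GC libraries, a difference of -1.28 ± 0.23 near the lower end of the tested range.

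Near the bottom of the scale, 5 members had too low a level to be tested: H2-L, H2-T22, H2-M2, H2-M5 and H2-M10.2. H2-T22 lay between -2.50 and 0.32 log2, H2-M2 between -6.38 and -0.76 and H2-M10.2 between -6.42 and -3.53 over all libraries. H2-L, a class I chain gene of the d haplotype, read -0.96, -0.78 and -0.24 in in vivo activated, -0.60, -1.33 and -1.15 in 4 h, -1.98, -2.39 and -1.48 in naive and -1.96, -3.35 and -2.45 in peak GC libraries. H2-L has no entry in the annotation used here. Whether its reads were lost or assigned to a similar gene was not tested, so these values may not give its expression. H2-M5 read -0.87, -1.35 and -2.10 in early, -1.74, -2.39 and -2.14 in peak and -5.40, -3.26 and -3.78 in late GC libraries, and lay under -5 in 14 of the 15 other libraries. Since H2-M5 met the rule through the GC libraries, these values describe it and no test is given.

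**Figure D2:**
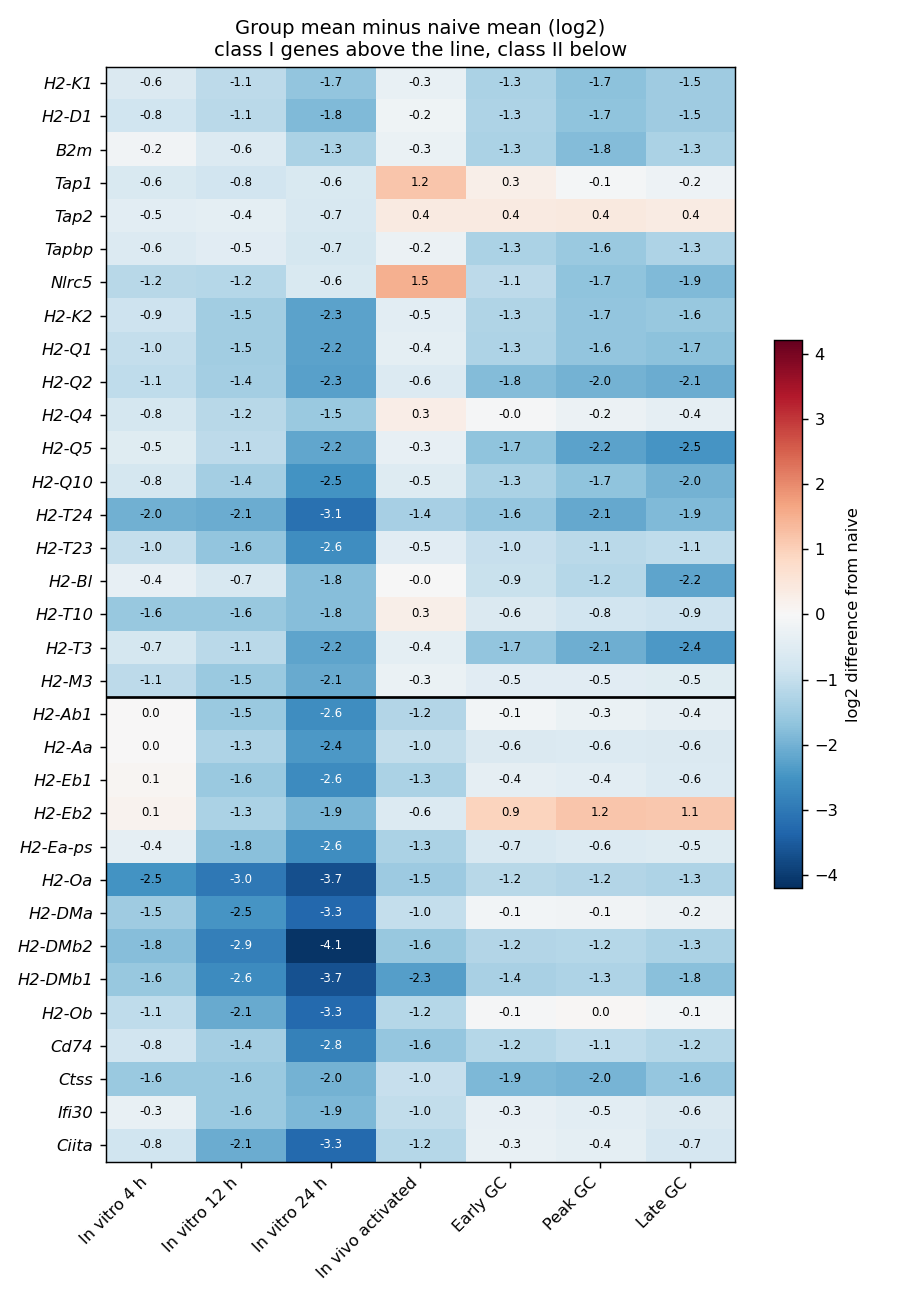
Difference of each group mean from the naive mean in log2, for the 33 tested members of the class I side (above the line) and the class II side (below), with the value in each cell, called or not. Most class II rows turn dark at 12 h and 24 h in vitro and are pale in the GC columns, while most class I rows stay blue in the GC columns.

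The class II chains took another course. H2-Aa, the alpha chain of I-A (chr17:34282744-34287823), read 12.92, 12.57 and 12.89 in naive and 12.92, 12.57 and 12.89 in 4 h libraries, followed by 11.49, 11.52 and 11.47 at 12 h and 10.28, 10.50 and 10.40 at 24 h. It read 11.67, 11.92 and 11.70 in in vivo activated, 12.19, 12.22 and 12.17 in early GC, 12.31, 12.34 and 12.05 in peak GC and 12.07, 12.22 and 12.29 in late GC libraries. Naive and 4 h values were the same to 2 decimals for each replicate number. H2-Aa ranked 3 or 4 in both groups, and since the deposited libraries share nearly one distribution, a value at the top of the scale follows the rank of the gene. At 24 h, where its rank was between 59 and 77, it was 5.28-fold below naive.

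H2-Ab1, the beta chain of I-A (chr17:34257689-34269419), read 12.08, 11.80 and 11.95 in naive libraries, 11.97, 11.96 and 11.95 at 4 h, 10.39, 10.40 and 10.40 at 12 h and 9.21, 9.38 and 9.40 at 24 h. It read 10.68, 10.78 and 10.72 in in vivo activated, 11.97, 11.73 and 11.78 in early GC, 11.68, 11.80 and 11.48 in peak GC and 11.43, 11.55 and 11.72 in late GC libraries. All 9 GC libraries lay above all in vivo activated ones. H2-Eb1, the beta chain of I-E (chr17:34305867-34316674), read 12.20, 11.95 and 12.07 in naive libraries, 12.08, 12.19 and 12.20 at 4 h, 10.49, 10.51 and 10.50 at 12 h and 9.29, 9.49 and 9.49 at 24 h. It read 10.65, 10.83 and 10.77 in in vivo activated, 11.80, 11.66 and 11.61 in early GC, 11.73, 11.60 and 11.55 in peak GC and 11.50, 11.49 and 11.55 in late GC libraries. Against naive cells, the 4 h difference was 0.02 ± 0.08 for H2-Ab1 and 0.08 ± 0.06 for H2-Eb1, neither called, and the 24 h difference was -2.61 ± 0.08 for H2-Ab1 and -2.65 ± 0.06 for H2-Eb1.

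H2-Eb2 (chr17:34325665-34341412) was the class II member that was higher in GC than in naive cells. It read 5.50, 5.51 and 5.52 in naive, 3.58, 3.74 and 3.45 in 24 h and 4.93, 4.97 and 4.94 in in vivo activated libraries. It read 6.42, 6.34 and 6.59 in early, 6.82, 6.59 and 6.60 in peak and 6.42, 6.78 and 6.76 in late GC libraries, all above every library outside the GC. Peak GC cells were 2.23-fold above naive cells (log2 1.16 ± 0.09, adjusted p = 4.08e-11 from limma) and 3.3-fold above in vivo activated cells. Among the 14 tested class II members it was the only one called higher against naive cells in any of the 3 GC stages, and it stands next to H2-Ea-ps, which was 0.56 ± 0.08 lower in peak GC than in naive cells.

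Cd74, the invariant chain, read 14.12, 14.12 and 14.08 in naive libraries, 13.31, 13.31 and 13.26 at 4 h, 12.56, 12.56 and 12.89 at 12 h and 11.20, 11.36 and 11.27 at 24 h. It read 12.33, 12.56 and 12.52 in in vivo activated, 12.93, 12.93 and 12.89 in early GC, 13.31, 12.93 and 12.89 in peak GC and 12.93, 12.93 and 12.89 in late GC libraries. Its rank fell from 1 in naive libraries to 2 at 4 h, 3 or 4 at 12 h and between 17 and 22 at 24 h, and was 4 or 5 in in vivo activated and 2 or 3 in GC libraries. Its 1.06 ± 0.09 lower value in peak GC than in naive cells is therefore a step of 1 or 2 ranks.

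At 4 h in vitro all 6 accessory genes (H2-DMa, H2-DMb1, H2-DMb2, H2-Oa, H2-Ob and Cd74) were called lower than in naive cells and 1 of 5 chains, H2-Ea-ps, was (-0.37 ± 0.08), with 39.1% of all genes called lower, while the difference between these 2 sets of genes was not tested. H2-Oa, the alpha chain of H2-O (chr17:34092340-34095234), read 8.03, 7.73 and 7.71 in naive, 5.28, 5.32 and 5.37 in 4 h, 6.08, 6.46 and 6.39 in in vivo activated and 6.71, 6.73 and 6.32 in peak GC libraries. At 4 h it was already 5.64-fold below naive (log2 -2.50 ± 0.12, adjusted p = 2.44e-14 from limma), with no overlap between the libraries. H2-Ob, the beta chain (chr17:34238903-34254414), read 9.10, 9.0 and 8.99 in naive, 8.05, 7.89 and 7.95 in 4 h, 7.63, 8.03 and 7.79 in in vivo activated and 9.18, 9.04 and 8.97 in peak GC libraries. For the 2 chains of H2-O, the peak GC difference from naive was -1.24 ± 0.12 for H2-Oa and 0.03 ± 0.08 for H2-Ob, the second not called, and the difference between the chains was not tested. Of the H2-DM genes, H2-DMa was lower by 0.14 ± 0.08 in peak GC than in naive cells, not called, and H2-DMb2 by 1.21 ± 0.08. At 24 h H2-DMb2 was 17.4-fold below naive, the largest difference of any tested member in any comparison.

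Ciita, the class II transactivator (chr16:10480059-10528418), read 8.61, 8.48 and 8.57 in naive libraries, 7.57, 7.69 and 7.92 at 4 h, 6.53, 6.45 and 6.45 at 12 h and 5.26, 5.36 and 5.22 at 24 h. It read 7.18, 7.57 and 7.34 in in vivo activated, 8.26, 8.15 and 8.28 in early GC, 8.35, 8.15 and 7.96 in peak GC and 7.87, 7.79 and 7.90 in late GC libraries. Ciita was 9.65-fold below naive at 24 h (log2 -3.27 ± 0.09) and 1.73-fold higher in peak GC than in in vivo activated cells (0.79 ± 0.09), with no overlap of libraries in either comparison. Ifi30, a thiol reductase that opens disulfide bonds of endocytosed antigen (chr8:70762774-70766663), read 10.24, 10.06 and 10.07 in naive, 9.10, 9.07 and 9.10 in in vivo activated and 9.63, 9.75 and 9.63 in peak GC libraries. Ctss (chr3:95526786-95556403) read 9.77, 9.76 and 9.71 in naive, 8.74, 8.78 and 8.82 in in vivo activated, 7.77, 7.84 and 7.74 in peak GC and 8.17, 8.13 and 8.10 in late GC libraries. It went the other way from its class when early and peak GC cells were set against in vivo activated ones. Against naive cells it was lower in each GC stage, as most class II members were. Peak GC cells were 1.0 ± 0.04 below in vivo activated cells for Ctss.

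Called in either direction against naive cells were 30 of the 35 tested members at 4 h, 35 at 12 h and 35 at 24 h in vitro, against 78%, 80.9% and 84.8% of all tested genes. The counts were 34 in in vivo activated, 31 in early GC, 32 in peak GC and 34 in late GC cells, against 79.3%, 79.7%, 79.7% and 81.6%. Since most genes of the table were called in these comparisons, that a member was called says little by itself, and the directions and sizes are given below. Between later states, 27 members were called from 4 h to 12 h (61.9% of all genes) and 34 from 12 h to 24 h (57.3%). Early and peak GC against in vivo activated cells gave 31 (69.5%) and 32 (69.2%). Among GC stages the counts were 11 for peak against early (13.2%), 10 for late against peak (32.6%) and 19 for late against early (35.1%).

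Both classes were lower in culture than in naive cells, with medians of -0.76 on the class I and -0.82 on the class II side at 4 h. The 5 class II chains alone had a median of 0.02 at 4 h, with 1 called lower and 4 not called. At 4 h, 18 of 19 class I and 10 of 14 class II members were lower than in naive cells and none was higher, while 39.1% of all tested genes were called lower and 38.9% higher. At 12 h and at 24 h all 19 and all 14 were lower, against 39.2% and 42.5% of all tested genes, and 41.7% and 42.2% of all genes were called higher. The median difference from naive at 24 h was -1.84 on the class I side, -2.74 on the class II side and -0.01 over all tested genes. All 14 class II members had their lowest group mean at 24 h, and so did 11 of 19 class I members. From 4 h to 12 h, 12 of 19 class I members fell and 13 of 14 class II members fell (27.2% of all genes), with medians of -0.40 and -1.16. From 12 h to 24 h, 16 of 19 and all 14 fell (34.8%) and Nlrc5 rose. Tap1 was called higher by 0.16 ± 0.07, a call lost in 8 alternative settings, among them without any 1 of the 12 h libraries and without 24 h replicate 2 or 3. The 3 comparisons with naive cells share the same naive libraries. The macrophage-marker sums given above were lower in all in vitro libraries than in naive ones. At 4 h, 9 of the 10 tested macrophage markers were lower than in naive cells and 1, Cd68, was higher. At 12 h and at 24 h, 8 of them were lower and 0 higher. Of the 6 B-cell markers 5, 5 and 6 were also lower at 4 h, 12 h and 24 h, with medians of -1.54, -1.49 and -1.58, and their part in the MHC differences was not tested.

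In in vivo activated cells the class II side was low and the class I side was divided. Against naive cells, all 14 class II members were lower (median -1.22) and 13 of 19 class I members were lower with 5 higher (median -0.28), while 40.1% of all tested genes were called lower and 39.2% higher. At least 2-fold lower were 11 of 14 class II members and 1 of 19 class I members, H2-T24, against 17.6% of all genes. The class I members that rose were Nlrc5, Tap1, Tap2, H2-Q4 and, with overlapping libraries and a call lost when 1 of 2 libraries was left out, H2-T10. Among those that fell, H2-D1, H2-Q5 and H2-T3 lost their call in at least 1 alternative setting. Ciita fell by 1.19 ± 0.09 and H2-Aa by 1.03 ± 0.10 in this comparison, while H2-K1 fell by 0.33 ± 0.05 and B2m by 0.28 ± 0.07.

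Against in vivo activated cells, GC cells held more class II and less class I transcript. In early GC against in vivo activated cells, 13 of 14 class II members were higher and 17 of 19 class I members lower, with 33.2% of all tested genes called higher and 36.4% lower. In peak GC cells 13 of 14 class II members were higher (34.1% of all genes) and 18 of 19 class I members lower (35%), with medians of 0.78 and -1.23 against -0.01 over all genes. Ctss was the class II member that was lower in both, and no class I member was higher in either. H2-Ab1 was higher in peak GC than in in vivo activated cells by 0.93 ± 0.08, H2-Eb1 by 0.87 ± 0.06 and H2-Ob by 1.24 ± 0.08. H2-Oa in early GC lost its call without early GC replicate 1 or in vivo activated replicate 1. In peak GC it was called at an adjusted p of 0.0488 from limma with overlapping libraries and was not called in 8 alternative settings, among them without peak GC replicate 1 or 2 and without in vivo activated replicate 1 or 3. These comparisons share the in vivo activated libraries with the one before, so a low class II level there enters both. Macrophage markers summed to between 119 and 267 in peak GC and between 32.9 and 39.6 in in vivo activated libraries, a sum led by Lyz2 (6.37 to 7.73 log2 in peak GC). Of the 10 tested macrophage markers 4 were higher, 2 were lower and 4 were not called, and their part in the class II difference was not tested.

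**Figure D3:**
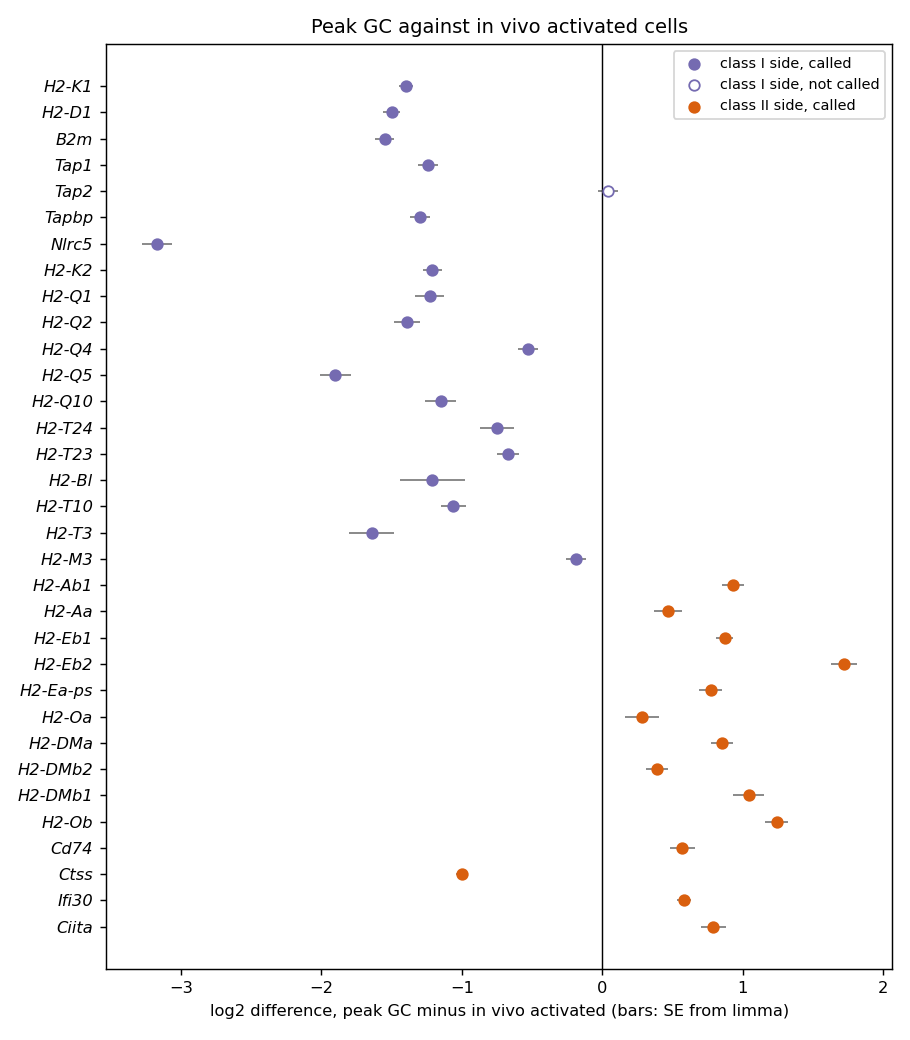
Log2 difference between peak GC and in vivo activated cells for the 33 tested members of the class I and class II sides, with bars for the SE and open points where not called. All class II members except Ctss lie right of 0 and all class I members except Tap2 lie left of it.

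Against naive cells, the class I side was lower in each GC stage, by 16, 17 and 18 of 19 members in early, peak and late GC cells with medians of -1.28, -1.66 and -1.50. Background calls in the lower direction were 40.2%, 39.3% and 43.1% of all tested genes. On the class II side 10, 11 and 12 of 14 were lower with medians of -0.49, -0.51 and -0.61, and H2-Eb2 was higher each time, against 39.5%, 40.5% and 38.5% of all genes called higher. At least 2-fold lower in peak GC cells were 14 of 19 class I members and 5 of 14 class II members (H2-Oa, H2-DMb1, H2-DMb2, Cd74 and Ctss), against 17.5% of all genes.

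Between GC stages fewer genes were called, over the whole table too. From early to peak GC, 11 of 19 class I members fell and 0 of 14 class II members were called in either direction by limma (3 at an unadjusted p under 0.05), while 7.42% of all tested genes were called lower and 5.77% higher. The falls were H2-K1 by 0.39 ± 0.05, B2m by 0.49 ± 0.07 and Nlrc5 by 0.60 ± 0.11, and 5 of the 11 were called when only the 2 groups were fitted. From peak to late GC, 4 class I members rose (H2-K1, H2-D1, B2m and Tapbp) and 2 fell (H2-Bl and H2-Q10), while on the class II side Ctss rose and H2-DMb1, Ifi30 and Ciita fell. Over all tested genes 12% were called higher and 20.6% lower, so 5 higher and 5 lower of 35 members is close to the background and no result about the members. Only 2 of these 10 calls, B2m and Ctss, were made when only the 2 groups were fitted, and the other 8 were each lost in at least 1 alternative setting. B2m rose by 0.49 ± 0.07 with no overlap of libraries. From early to late GC, 13 of 19 class I members were lower and 0 higher, and on the class II side 5 were lower and Ctss higher, against 22.1% lower and 13% higher over all genes. Of these calls, those of H2-K1, H2-D1, H2-Q2, H2-T10, H2-Ab1 and H2-Eb1 were lost in at least 1 alternative setting.

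Ctss was 0.35 ± 0.04 higher in late than in peak GC cells and 0.33 without late GC replicate 1. That library held the highest macrophage-marker sum, 2080, against 695 and 484 in the other late GC libraries and between 119 and 267 in the peak GC ones. Of 10 tested macrophage markers, 4 rose in this comparison (12% of all genes), among them Lyz2 by 2.58 ± 0.50 and Csf1r by 2.21 ± 0.39. Of the class II chains, 0 of 5 were called by limma (0 at an unadjusted p under 0.05), with 32.6% of all genes called in either direction. The part of the macrophage transcripts in the Ctss difference was not tested.

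The relation of the classes was also read as the mean log2 value of the 5 class II chains minus that of H2-K1, H2-D1 and B2m. Because genes differ in length, only its change between groups is read, and no test is given for a mean over chosen genes. Class I means were 10.32 ± 0.03 (SD, n = 3) in naive, 9.79 ± 0.05 at 4 h, 9.39 ± 0.03 at 12 h and 8.72 ± 0.06 at 24 h in vitro. They were 10.06 ± 0.02 in in vivo activated, 9.01 ± 0.03 in early, 8.58 ± 0.07 in peak and 8.89 ± 0.13 in late GC cells. Class II means were 10.92 ± 0.10 in naive, 10.89 ± 0.04 at 4 h, 9.42 ± 0.02 at 12 h and 8.48 ± 0.09 at 24 h, and 9.83 ± 0.09 in in vivo activated, 10.75 ± 0.06 in early, 10.78 ± 0.11 in peak and 10.73 ± 0.11 in late GC cells. The class difference was 0.83 below naive in in vivo activated and 1.15 above naive in early GC cells. It was 1.6 above naive in peak and 1.25 above in late GC cells. In vitro it was 0.51 above naive at 4 h, 0.57 below at 12 h and 0.84 below at 24 h, and the rise at 4 h turned into -0.32 once H2-DM, H2-O and Cd74 were counted with the chains. The largest difference between in vivo activated and GC cells was 2.43, for peak GC.

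**Figure D4:**
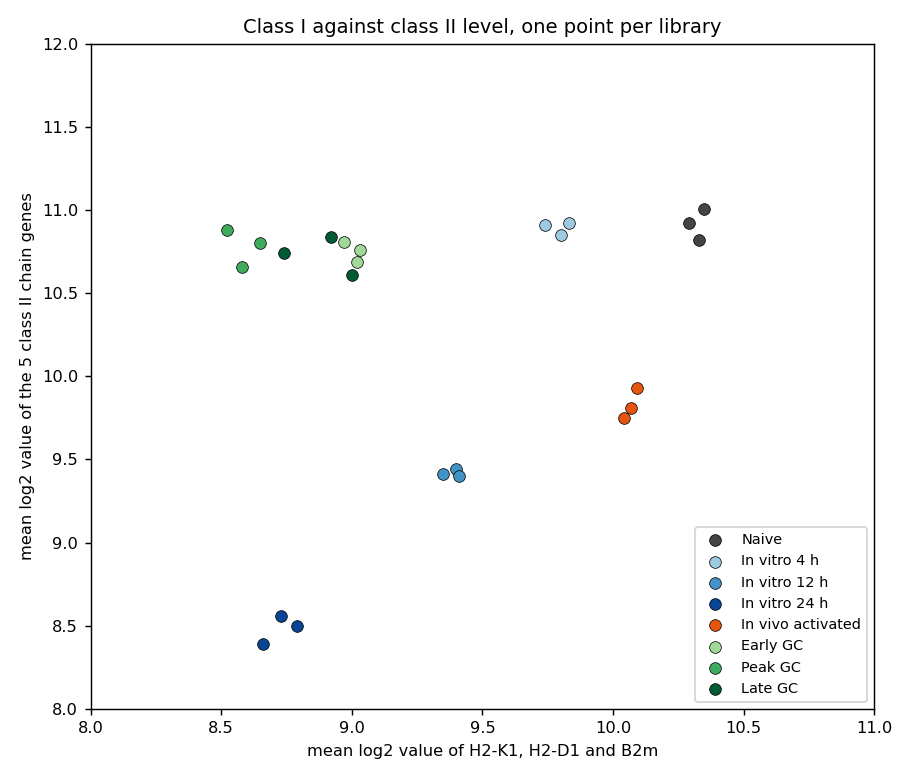
Mean log2 value of the 5 class II chain genes (vertical) against that of H2-K1, H2-D1 and B2m (horizontal), one point per library. Naive libraries stand at the upper right, the in vitro series goes down to the lower left at 24 h, in vivo activated libraries keep class I with lower class II, and the 9 GC libraries keep class II with lower class I.

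As a share of the summed library level, class II chains with Cd74 held between 2.87% and 3.03% at 4 h, 1.33% and 1.47% at 12 h and 0.564% and 0.631% at 24 h. They held between 1.35% and 1.58% in in vivo activated libraries and between 2.1% and 2.58% in the peak GC ones. H2-K1, H2-D1 and B2m together held between 0.325% and 0.335% in in vivo activated and between 0.113% and 0.125% in peak GC libraries. The GC ranges of both shares did not overlap those of the in vivo activated libraries.

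Other genes of the pathways were taken from lists that did not enter the choice of members. Of the 5 immunoproteasome genes, 4 fell and 1 rose at 4 h, against 39.1% and 38.9% of all tested genes, with Psmb9, a catalytic subunit, down by 1.77 ± 0.06 and Psme2, part of the proteasome activator, up by 1.22. In in vivo activated cells 4 of 5 rose against naive cells (39.2% of all genes), led by Psmb9 (1.41 ± 0.06) and Psmb8 (0.81). In peak GC cells 2 of 5 were higher than in naive cells, the share of all genes (40.5%), and 0 lower, Psmb8 by 0.86 and Psmb9 by 0.92 ± 0.06, the direction opposite to that of the class I chains. The 5 further loading genes (chaperones, Erap1 and Tapbpl) all rose at 4 h (38.9% of all genes), led by Erap1, the aminopeptidase that trims peptides (1.44). All 5 were lower in peak GC than in in vivo activated cells (35% of all genes).

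Of the 7 genes of the class II transcription complex, 4 fell and 2 rose at 24 h against naive cells, shares not far from those of all genes (42.5% and 42.2%). The subunits Rfx5 and Rfxank of the factor that binds the X box fell by 1.75 and 1.74, and Nfyb and Nfya of the factor that binds the Y box rose by 0.78 and 0.82. Rfx5 was also 1.06 ± 0.08 lower in in vivo activated than in naive cells and 0.43 ± 0.08 higher in peak GC than in in vivo activated cells. March1, a ubiquitin ligase that sends class II molecules to lysosomes, fell by 3.78 ± 0.14 at 24 h and by 1.8 ± 0.14 in in vivo activated cells, and was 1.62 ± 0.14 higher in peak GC than in in vivo activated cells. March1 and H2-Ab1 were both lower than in naive cells at 24 h and in in vivo activated cells, whereas in peak GC cells March1 differed from naive by -0.18 ± 0.14, not called.

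Of the 6 endosomal proteases, 3 fell and 2 rose at 24 h, about the shares of all genes (42.5% and 42.2%), with Lgmn, asparagine endopeptidase, down by 2.20 and Ctsh down by 1.27. From peak to late GC 3 of 6 rose (12% of all genes), led by Ctsd (0.96 ± 0.11) and Ctsl (1.48 ± 0.22). The macrophage-marker sums given above were also higher in late GC libraries, and their part was not tested. Of the 7 regulators tested, Irf1, an activator of class I genes, was lower than in naive cells by 1.45 at 4 h, 2.79 at 24 h, 2.09 in in vivo activated and 1.95 in peak GC cells. Nlrc5 and Tap1 were higher in in vivo activated than in naive cells while Irf1 was lower, and a link between them was not tested. Bcl6, the GC repressor, was 5.09 higher in peak GC than in in vivo activated cells. Its group means were 6.72 in naive, 2.71 in in vivo activated and 7.8 in peak GC cells, so naive cells lay much nearer to the GC level.

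Of the 5 tested MHC-like genes outside the H2 region, 4 fell at 4 h, 4 at 24 h and 4 in peak GC cells against naive cells, and 0 rose in those 3 comparisons, against 39.1%, 42.5% and 39.3% of all genes called lower. Cd1d1, which presents lipids to natural killer T cells and pairs with B2m, read 4.68, 4.49 and 4.31 in naive, 5.23, 5.33 and 5.10 in in vivo activated and -0.93, -1.48 and -0.30 in peak GC libraries. Peak GC cells were 69.6-fold below in vivo activated cells for Cd1d1 (log2 -6.12 ± 0.21, adjusted p = 2.92e-17 from limma). Fcgrt, the neonatal Fc receptor, which also pairs with B2m, was 4.24 ± 0.29 lower in peak GC, 3.76 ± 0.29 lower in in vivo activated and 4.75 ± 0.29 lower in 24 h cells than in naive ones.

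Of the 2 genes of the H2 region that encode no presenting molecule, H2-Ke6 was lower than in naive cells in all 7 comparisons with them, by between 0.45 and 0.93, as most members of both classes were. H2-Ke2 read 4.73, 4.70 and 4.60 in naive and 6.23, 6.26 and 6.14 in 12 h libraries and rose by 1.53 ± 0.06, the one tested member that was higher than naive at 4 h, 12 h and 24 h. H2-Ke6 read 5.69, 5.45 and 5.44 in naive and 4.72, 4.89 and 4.59 in peak GC libraries, and 65.5% of its 75-base windows are shared with an overlapping transcript model.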

How the data were processed

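RNA was sequenced from 24 libraries of sorted BALB/c splenic B cells, 3 in each of 8 groups taken from the sample titles. The submitters' processing notes name STAR 2.6.0c, mm10, limma, Subread 1.6.2 with featureCounts, FastQC 0.11.5 and cutadapt 1.8.3. How reads were counted and what limma was used for is not given in the sources used here. The authors deposited log2 values that resemble CPM, as 2 to the power of the values sums to between 990678 and 1008194 per library, and the depth is unknown. The value at rank 1000 differed by at most 0.03 between libraries, and for each gene the means over replicate numbers 1, 2 and 3 differed by at most 0.000875, as after a correction for the replicate number.

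Here limma 3.58.1 in R 4.3.3 was fitted to the deposited log2 values with 8 group means and no other term, on all 24 libraries, with a variance trend and robust moderation (16 residual degrees of freedom), after a filter of log2 at least 0 in at least 3 libraries that kept 11885 genes. P-values are two-sided and adjusted by Benjamini-Hochberg over these genes in each of 14 comparisons. The script was tested on simulated data. The SE is from limma and the SD is over 3 libraries. Summed levels add 2 to the power of the log2 values. Exon lengths, coordinates and shared windows of 75 bases come from GENCODE M21 (mm10), and promoters from RefSeq (GRCm38.p6). Tables were made with pandas 2.3.3 and numpy 2.4.6 in Python 3.11.15, and figures with matplotlib 3.10.9. The members, the pathway and marker lists and the rule for naming genes were chosen with earlier results of these data known. From a list, up to 2 genes in each direction were named by the smallest p in a comparison. The alternatives were the replicate block, only the groups compared, no trend, other filters, log2 of CPM plus 1, median centring and leaving out each library. No coordinates or sequence are given for Cd74.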

Additional observations from a re-analysis of the deposited data

How the results depend on the processing

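Of the counts of members called, 12 of 14 stayed within 1.5 times under each alternative run. With only the 2 groups compared in the fit, the count fell from 11 to 5 for peak against early GC and from 10 to 2 for late against peak GC, a fit with fewer libraries. The same replicate number in 2 groups marked no shared source in the labels. Its correlations of deviations ran from -0.369 to 0.112. The deposited values carry no difference between replicate-number means, which pushes these correlations below 0, so they cannot show whether a source was shared. The main fit takes off no degrees of freedom for that removal (16 are left, and 14 with the replicate block). Its SE and p-values from limma may therefore be too small. With the replicate block the counts were 30, 35 and 35 at 4 h, 12 h and 24 h against naive, 26 for 12 h against 4 h and 33 for 24 h against 12 h. They were 34, 31, 32 and 34 for in vivo activated, early, peak and late GC against naive, 31 and 31 for early and peak GC against in vivo activated, and 9, 9 and 16 for peak against early, late against peak and late against early GC. Leaving out 1 library gave between 8 and 13 calls for peak against early GC, between 8 and 13 for late against peak GC and between 15 and 19 for late against early GC. The number of called members that changed sign under any alternative was 0. H2-Ab1 at 4 h against naive, not called, lay between -0.06 (without naive replicate 2) and 0.09 as 1 library was left out.

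Class II minus class I, the chain means of the report, changed size with the genes averaged. With the 12 tested class Ib genes added to class I, it was 0.86 at 4 h and -0.20 at 12 h against naive. It was -0.34 at 24 h against naive and -0.14 for 24 h against 12 h. It was 1.01 and 1.36 for early and peak GC against naive, 1.76 and 2.11 against in vivo activated, 0.37 for late against early GC and 0.02, a change of sign, for late against peak GC. With H2-DM, H2-O and Cd74 added to class II it was -0.32, a change of sign, at 4 h, -1.07 at 12 h, -1.40 at 24 h, -1.08 in vivo activated, 0.78, 1.23 and 0.82 in early, peak and late GC against naive. It was -0.75 for 12 h against 4 h, -0.34 for 24 h against 12 h, and 1.86 and 2.31 for early and peak GC against in vivo activated. With the median over genes it was -0.47 at 12 h, -1.0 at 24 h, -0.99 in vivo activated, 0.97, 1.31 and 1.01 in early, peak and late GC against naive, -0.97 for 12 h against 4 h, -0.53 for 24 h against 12 h and 2.30 for peak GC against in vivo activated. The cause of these moves beyond the choice of genes was not tested. Leaving out 1 library kept the sign in all 14 comparisons, with the narrowest margin for late against early GC, between 0.02 and 0.22. The depth is unknown, so no value could be given an interval for counting error.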
